A study of Mus musculus with 2 samples.

Results

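The genes described here are 8 products of Paneth cells, the secretory cells at the base of the small intestinal crypts: Lyz1, Defa17, Defa21, Defa24, Defa30, Ang4, Mptx2 and Mmp7. They were chosen by symbol, and all 8 were found among the 56980 genes of the deposited tables. Each gene was followed as UMIs (unique molecular identifiers, counts of captured transcripts) across the cell classes of 2 single-cell libraries of mouse small intestine, 1 labelled control and 1 labelled model. The series title names simulated microgravity, radiation and a set of bioactive compounds called CB001, but the labels do not say what the model animal received, how many animals gave each library or which stretch of gut was taken. The tissue lost its mesentery and Peyer's patches before it was dissociated with EDTA, collagenase and DNase. Among the cells kept, 4 of 7329 control and 277 of 7913 model cells were named B cell-like. Whether lymphoid tissue was removed alike for both libraries was not tested. With 1 library in each group there is no replicate check. No test between control and model animals is given, and every interval below is a 95% interval that covers counting error only.

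Paneth cells store antimicrobial proteins in granules and release them into the crypt lumen, where they limit bacteria and protect the neighbouring stem cells. Lysozyme, made from Lyz1, cuts bacterial cell walls, and the alpha-defensins (Defa genes) are small peptides that disrupt bacterial membranes. Mouse alpha-defensins are made as inactive precursors that the protease matrilysin, the product of Mmp7, cuts into the active form. Ang4 is a secreted ribonuclease with antibacterial action, and Mptx2 is a pentraxin, a secreted protein that binds microbial surfaces. Wnt signals, which act on genes through TCF and LEF factors, maintain the Paneth cell fate in the crypt.

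Promoters were compared because TCF and LEF factors bind short motifs, and the 2 shown belong to the defensins that were close to 0 in goblet-like cells carrying many Defa24 UMIs, described below. The sequences are the 250 bases before the transcript start, from RefSeq on GRCm38.p6, both on the plus strand, Defa21 at chr8:21025295-21025544 and Defa30 at chr8:21134400-21134649. Capitals mark matches to 4 motifs on either strand, namely CTTTGAT, then the motif CTTTGTT, then the motif CTTTGAA and then the motif CTTTGTA.

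Defa21: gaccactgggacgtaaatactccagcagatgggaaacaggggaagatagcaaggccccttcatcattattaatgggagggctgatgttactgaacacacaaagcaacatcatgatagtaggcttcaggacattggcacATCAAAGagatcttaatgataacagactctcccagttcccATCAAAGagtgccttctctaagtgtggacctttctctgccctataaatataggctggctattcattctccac

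Defa30: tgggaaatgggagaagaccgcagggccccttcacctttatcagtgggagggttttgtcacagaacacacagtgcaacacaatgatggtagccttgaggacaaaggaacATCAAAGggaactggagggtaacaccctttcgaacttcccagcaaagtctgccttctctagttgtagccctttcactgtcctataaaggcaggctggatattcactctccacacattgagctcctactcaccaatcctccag

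The Defa21 stretch held 2 matches, starting 112 and 72 bases before the transcript start, and the Defa30 stretch held 1 match at 142 bases. All of them read ATCAAAG, which is CTTTGAT on the other strand. Defa17 and Defa24 had no entry. Of the 6 members with an entry, 3 held a match (50%), the third being 1 of the 2 entries of Mmp7, and the entries of Lyz1, Ang4 and Mptx2 held none. Among all 27025 genes with an entry, 16.8% held a match in at least 1 entry. Of 14 other Defa promoters, 11 held a match (78.6%). A match describes letters in this window and is neither a binding site nor a cause of any level below.

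Closely related transcripts limited which UMIs could be given to which defensin. In the last 400 bases of the GENCODE transcripts, 90.9% of the 90-base windows of Defa17 were also present in Defa3 or Defa30, so the Defa17 counts are uncertain. The share was 42.1% for Defa21, all of it with Defa22. It was 4.82% for Lyz1, shared with Lyz2, the lysozyme of macrophages, and 4.53% for Defa30. Defa24, Ang4, Mptx2 and Mmp7 shared no window with another transcript.

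After barcodes with few UMIs or genes, or with many mitochondrial UMIs, were removed, 7329 control and 7913 model cells remained, with 53035930 and 66232613 UMIs. Median UMIs per cell were 3636 and 3761, and mitochondrial UMIs made up a median of 10.8% (control) and 5.38% (model). The libraries shared 28 cell barcodes, of which 12 were kept in both. The clusters were built without the 8 members and without any other Defa gene. The member levels thus did not enter the clustering directly. They could still act on it, since each cell's counts were scaled by its total UMIs, members included. Cell classes were named from marker lists as "-like". The Paneth list included the non-member genes Defa3, Defa5, Defa20, Defa22, Defa23, Defa26 and Defa29. The name of that class is therefore not independent of the defensins. A Scrublet run on each library called 0 doublets, so doublets were not removed in the main values.

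Levels differed between cell classes by several orders of magnitude. The Paneth-like class, which showed 13 of its 16 markers, held 69 control and 2 model cells, and members made up 21.3% and 21.5% of its UMIs. A second, unnamed cluster was led by Reg4, Tac1, Defa21, Defa22 and Tph1, a mixture of Paneth and enteroendocrine transcripts, and is called the Reg4 Tac1 cluster. By marker count it came closest to crypt stem or transit-amplifying cells, with 7 of their 10 markers. That name was not kept, since its 10 leading genes held 0 of those markers and some of another type. The Reg4 Tac1 cluster held 96 control and 142 model cells, and members were 3.48% and 2.00% of its UMIs. Goblet-like cells, the mucus-secreting class, came next with 4801 and 2816 UMIs per 1000000 UMIs of the class (CPM). An unnamed cluster of shallow barcodes, led by Myo15b and Ada and with a median of 816 and 588.5 UMIs, held 1185 control and 174 model cells and 3859 and 997 CPM of the members. By the rule for lower and higher given below, 6 of 8 members were lower in it, where 5.64% of 7070 genes were. Crypt stem or transit-amplifying cells had 183 and 79 CPM, in the control library below the T cell-like and enterocyte-like levels given later. The Reg4 Tac1 cluster held 68.7% of all control member UMIs and 81.5% of all model member UMIs, and the Paneth-like class 13.4% and 1.68%.

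**Figure D1:**
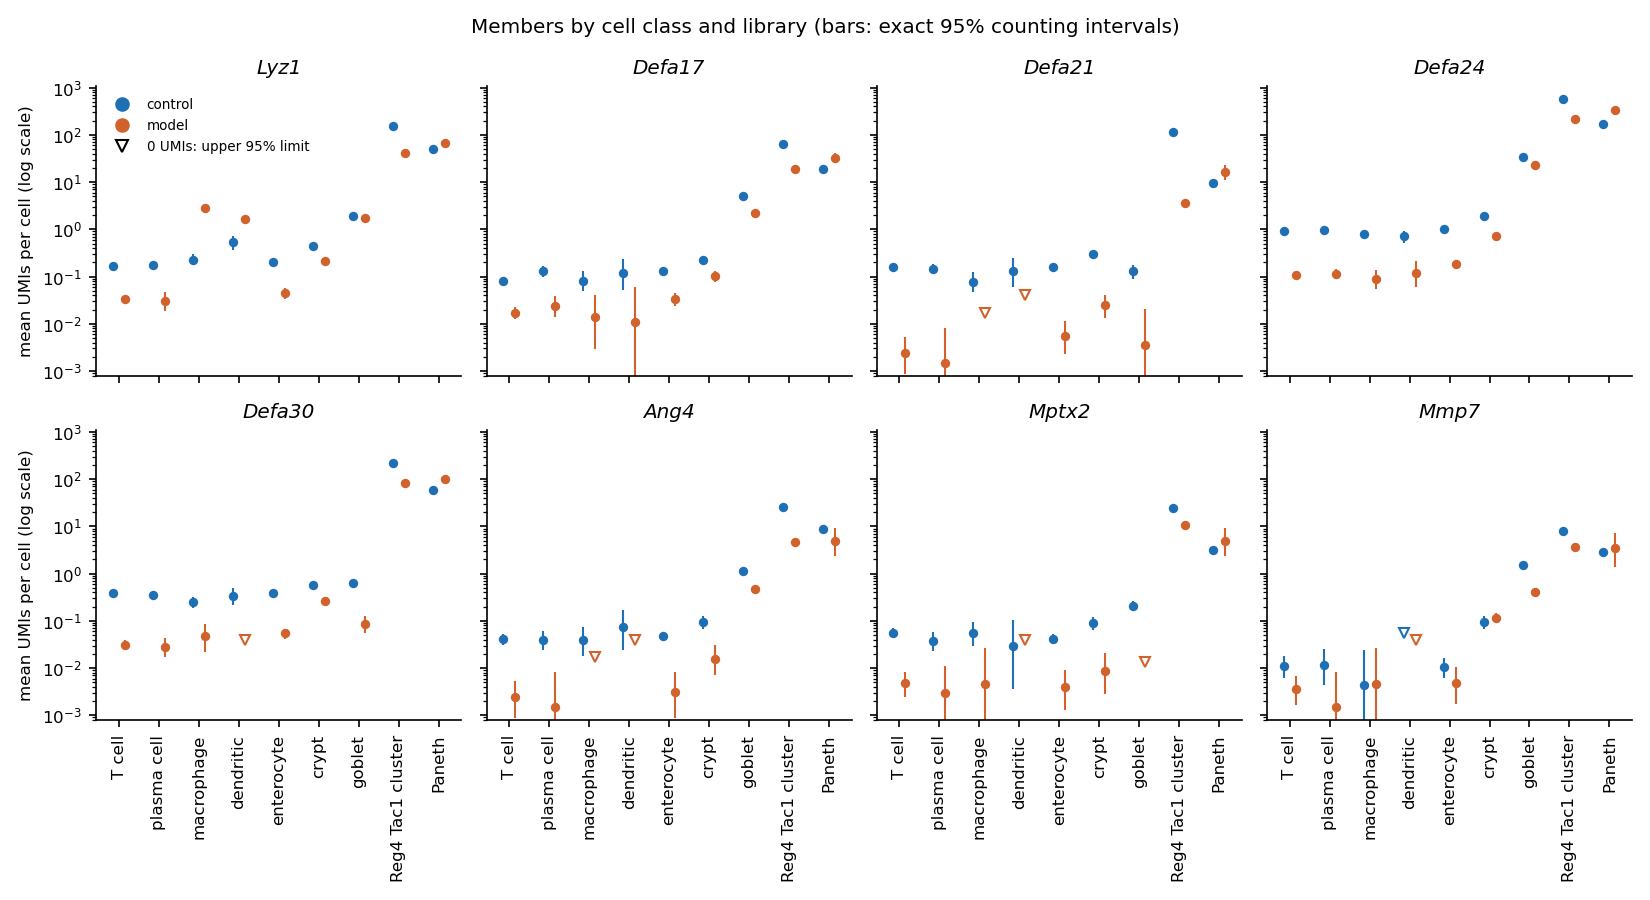
Mean member UMIs per cell (log axis) by cell class, control and model, with 95% Poisson intervals. Open triangles are upper limits where 0 UMIs were counted, and bars that reach the axis extend past it. The Paneth-like class, the Reg4 Tac1 cluster and goblet-like cells stand above the other classes for most members, crypt cells come next among the classes drawn, and Defa30 and Defa21 in goblet-like cells and Lyz1 in model macrophage-like cells depart from that order.

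Over all kept cells, each of the 8 members was lower in the model library. A gene was counted as lower or higher where its CPM ratio passed 1.5-fold with an interval excluding 1, and by that rule 8 of 8 members were lower, where 10.7% of 19217 genes were lower. Summed, the members had 165068 UMIs (3112 CPM) in the control library and 66735 UMIs (1008 CPM) in the model library, 3.09-fold lower (3.06 to 3.12). Lyz1 had 20690 and 7794 UMIs, 390 and 118 CPM, 3.32-fold lower (3.23 to 3.40). Among the defensins, Defa24 was the most abundant, with 1598 and 595 CPM, 2.69-fold lower (2.66 to 2.72). Defa30 had 532 and 184 CPM, 2.88-fold lower, and Defa17 had 190 and 54.2 CPM, 3.5-fold lower. Defa21 showed the widest gap of the 8, with 247 and 8.86 CPM, 27.8-fold lower (25.6 to 30.3), but 1 control cell held 8691 of its 13077 control UMIs. Mmp7, which processes the defensins, had 29.5 and 11.2 CPM, 2.63-fold lower (2.41 to 2.87). Ang4 had 70.3 and 12.8 CPM, 5.51-fold lower (5.11 to 5.94), and Mptx2 had 56.4 and 23.6 CPM, 2.38-fold lower (2.24 to 2.54).

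These sums rested on few barcodes. Barcodes with at least 5% of their UMIs from the members numbered 83 (control) and 9 (model), a 9.96-fold lower share of cells (5.0 to 22.5). The gap depended on depth. At 10000 or more UMIs there were 10 control and 6 model barcodes, a share 1.80-fold lower with an interval that includes equality (0.593 to 6.02). From 3000 to under 10000 UMIs there were 5 and 1. Below 3000 UMIs there were 68 and 2, a share 36.7-fold lower (9.78 to 309).

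**Figure D2:**
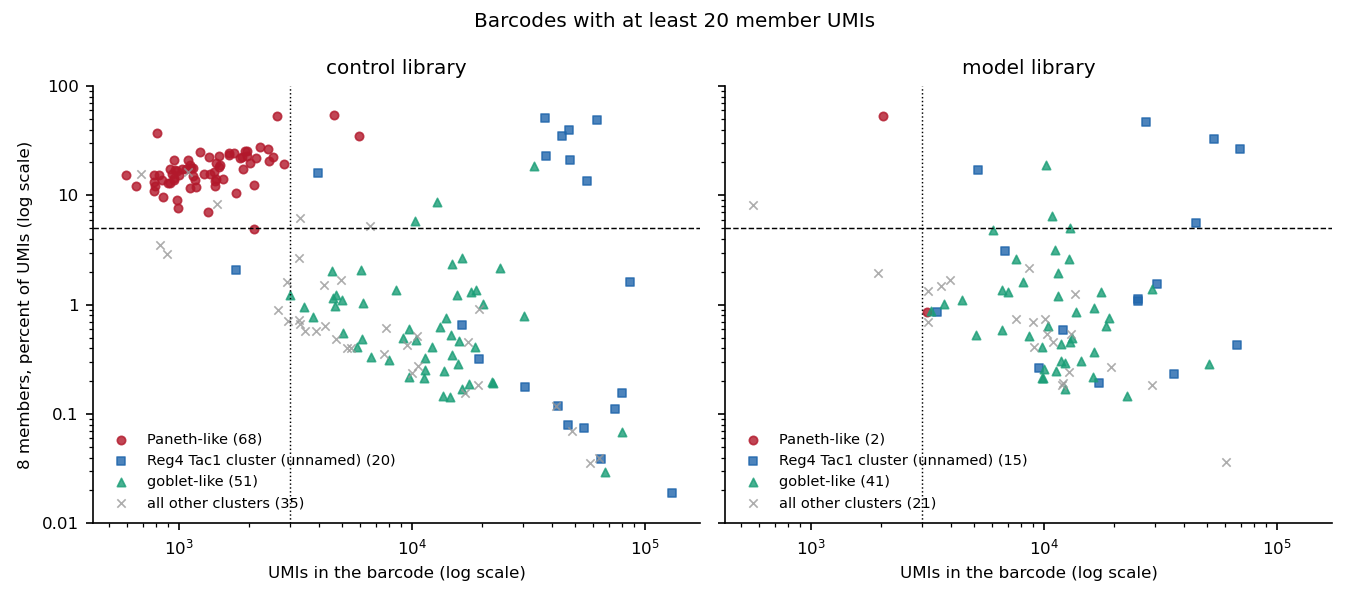
Each barcode with at least 20 member UMIs, by its total UMIs (log axis) and the percent of them that were member UMIs (log axis), coloured by class, control and model. The dashed line is 5% and the dotted line 3000 UMIs. Above the dashed line, the 68 control barcodes under 3000 UMIs form a dense group where the model library has 2 barcodes, whereas at 10000 or more UMIs there are 10 control and 6 model barcodes.

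Cells with at least 5000 member UMIs were found in both libraries, with 8 control and 3 model cells, a share 2.88-fold lower (0.691 to 16.9). They held 70.5% of the control and 73.4% of the model member UMIs. Of these 11 cells, 7 control and 3 model cells lay in the Reg4 Tac1 cluster and 1 control cell in the goblet-like class. When the members and other Defa genes were used for clustering, all of them fell in the Paneth-like class, which then held 84 control and 8 model cells. The 11 cells had been picked by the same members, so this placement is not independent of their choice. Member UMIs were 13.5% to 51.5% of a control cell's UMIs (median 28.9%) and 26.4% to 46.8% of a model cell's (median 32.9%).

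The levels of these few cells overlapped between the libraries for each member. Lyz1 ran from 351 to 4016 UMIs in the control cells (median 1753) and was 1479, 1565 and 2315 in the model cells. Defa24 ran from 3317 to 12456 UMIs and was 7591, 8802 and 10739 in the model cells. Defa17 ran from 648 to 1353 UMIs and was 542, 689 and 1003. The 3 model cells thus lay inside the control range for Lyz1 and Defa24, and 1 of them lay under it for Defa17.

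Defa30 ran from 15 to 4131 UMIs in the control cells and was 2665, 3375 and 5330 in the model cells. Defa21 ran from 0 to 8691 UMIs (median 215) and was 99, 157 and 262, so the model cells were within the control range and near its median. The highest model cell was above the control range for Defa30. Mmp7 ran from 50 to 253 UMIs (median 80) and was 47, 67 and 147, with the lowest model cell just under the control range. Ang4 ran from 73 to 911 UMIs and was 126, 177 and 281, and Mptx2 ran from 0 to 1081 UMIs and was 293, 571 and 629. Per 10000 UMIs of the cell, the median Ang4 level was 40.6 against 40.5, control first, and the median Mptx2 level was 39.0 and 106. In these cells the members' shares of the member UMIs also varied widely from cell to cell. With 8 and 3 cells, no order between the libraries can be read from these values.

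The 68 control barcodes under 3000 UMIs were described apart from the deep cells, a split made after the values were seen. They had a median of 480 genes and held 17803 member UMIs. In 63 of them there was at most 1 UMI of Mptx2, 4 UMIs of 14756 member UMIs in all, and the other 5 held 52 of 3047. Over all 68, Defa24 ran from 36.1% to 68.6% of a barcode's member UMIs and Defa21 from 0 to 17.8%, or to 15.6% in the 63. The dispersion of the member shares, an index of their spread between barcodes, was 1.49 in the 63 and 8.53 in the other 5. It was 663 in the 8 deep control cells with at least 5000 member UMIs. By this index the 63 were the most alike in make-up, but these sets also differ in depth.

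The 63 barcodes carried transcripts of several other cell types together with those of Paneth cells. UMIs of the goblet genes Muc2 and Zg16 and of the enterocyte gene Apoa1 were found in 63 of 63, Tff3 in 61, and the cytotoxic lymphocyte genes Gzma and Ccl5 in 60 and 56. The T cell gene Cd3e and the leukocyte gene Ptprc were found in 21 each. In all 68 barcodes, which were chosen by their member UMIs, 15 of 16 Paneth markers were detected, non-member Defa genes among them. These markers made up 3.51% of UMIs (1.32% to 9.19% by barcode). Goblet markers made up 3.46%, enterocyte markers 1.15% and T cell markers, 8 of 10 detected, 0.149%. In the deep control barcodes with at least 10000 UMIs, Paneth markers were 6.99%, goblet markers 3.15%, enterocyte markers 0.162% and T cell markers 0.009%. Of these 10 barcodes, the 8 with at least 5000 member UMIs had 1472 CPM of Muc2, 1398 of Tff3 and 76.5 of Zg16. All 10 together had 3856, 5110 and 4139 CPM. The 68 shallow barcodes had 7356, 7421 and 6818 CPM. The part of these mixed transcripts in the control's member levels was not tested. Leaving out the shallow barcodes of either library does not remove mixed or free transcripts from other barcodes. Of the 147265 control and 65597 model member UMIs then left, the barcodes with at least 10000 UMIs held 118132 and 54093. Summed, the members were then 2.81-fold lower in the model library. Lyz1 was at 2.87-fold, Defa24 at 2.44-fold, Defa30 at 2.61-fold, Defa21 at 28.3-fold, Ang4 at 4.80-fold, Mptx2 at 2.36-fold and Mmp7 at 2.38-fold.

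The Paneth-like class itself consisted mostly of these shallow barcodes, with a median of 1283 UMIs in its 69 control cells. Its size depended on the settings: with a minimum of 1000 UMIs it took in the deep cells and held 146 control and 115 model cells, with a median of 12512 and 12648 UMIs. Within it, 1 of 8 members was lower in the model library, where 4.21% of 428 genes were lower. That member was Ang4, with 592 and 10 UMIs, 2.97-fold lower as CPM (1.60 to 6.22). The model side is in effect a single barcode, which held 1092 of the 1119 member UMIs of its 2 cells. In the Reg4 Tac1 cluster, 5 of 8 members were lower, where 1.99% of 11151 genes were, but this rested on the few deep cells: 7 of its 96 control cells held 110271 of 113368 member UMIs, and 3 of its 142 model cells held 48951 of 54374. Ang4 had 750 and 247 CPM there (3.04-fold lower), Defa21 3410 and 190 CPM (17.9-fold, and 7.82-fold without the top cell of each library), Lyz1 4592 and 2193 CPM (2.09-fold), Defa17 1921 and 987 CPM (1.94-fold) and Defa30 6416 and 4234 CPM (1.52-fold). Defa24 with 1.48-fold, Mptx2 with 1.29-fold and Mmp7 with 1.22-fold did not pass the rule. Without the cells of at least 5000 member UMIs the direction turned: the summed members had 3097 and 5423 UMIs, 1060 and 2107 CPM, a ratio of 1.99 (1.90 to 2.08). Then Lyz1 (ratio 1.86) and Defa24 (2.50) passed as higher, Defa21, with 129 and 0 UMIs, as lower, and the other 5 as neither. These values leaned on single cells as well. In the model library 1 cell held 2522 of the 5423 member UMIs, with 418 of 618 of Lyz1 and 1751 of 3796 of Defa24. In the control library 1 cell held 1381 of the 3097, with 2 of 377 of Lyz1 and 1032 of 1722 of Defa24. The ratios without those cells were not computed.

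**Figure D3:**
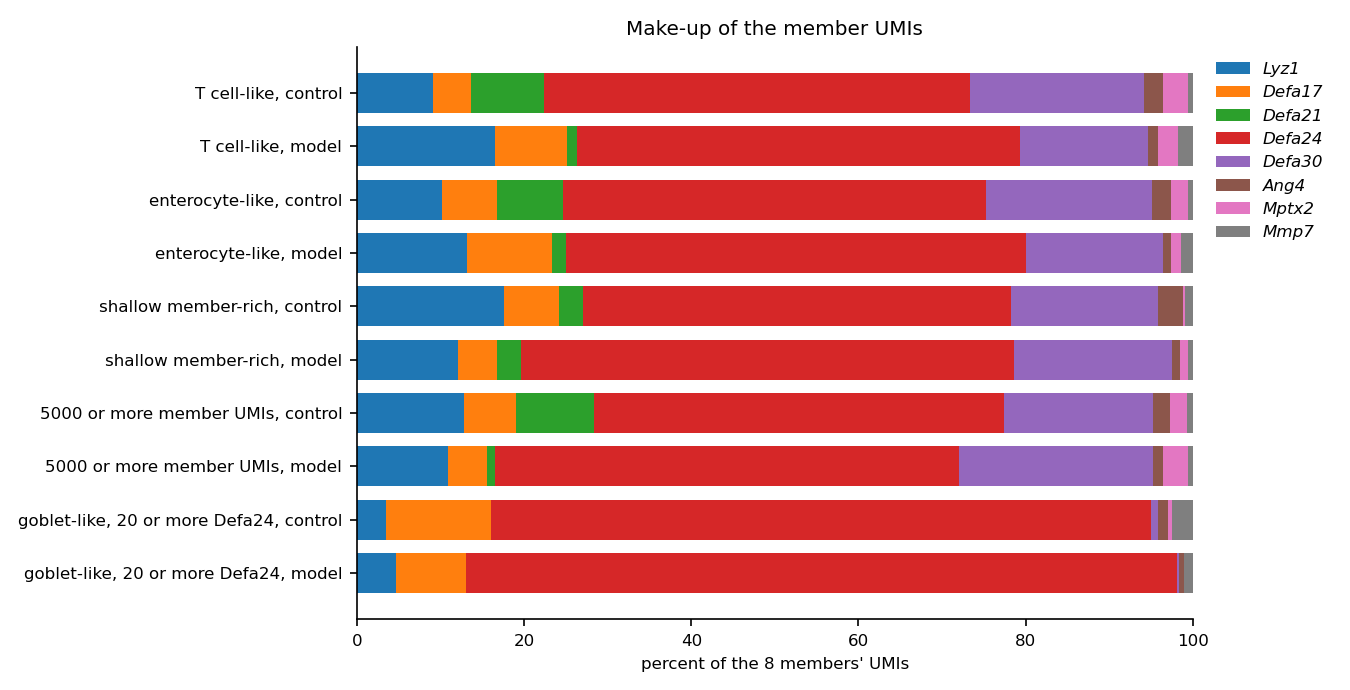
Share of the member UMIs that each of the 8 members made up, by set of cells and library. Defa24 is the largest share in T cell-like cells of both libraries (51.0% and 53.0%), and the Defa21 share there is 8.76% against 1.20%.

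Free RNA, transcripts released from broken cells and captured with other cells, gives member UMIs to cells that do not make these proteins. T cell-like cells served as the measure of it, with 1360 control and 2502 model cells and median depths of 3058 and 2704 UMIs. A member UMI was found in 76.5% of the control and 14.2% of the model T cell-like cells, and in 40.9% and 5.55% after each cell was thinned to 1000 UMIs. The members had 539 CPM (518 to 560) and 66.3 CPM (60.6 to 72.3), 8.13-fold lower in the model library (7.38 to 8.96), a wider gap than the 3.09-fold over all kept cells. All 8 members were lower there, where 3.41% of 12486 genes were, but Mmp7 no longer passed with no mitochondrial limit, at clustering resolution 2 or thinned (log2 ratios of -1.33, -1.35 and -2.11). Defa24 had 1269 and 266 UMIs (7.82-fold lower as CPM), Defa30 516 and 77 (11-fold), Lyz1 227 and 83 (4.49-fold) and Defa21 218 and 6 (59.6-fold). Ang4 had 56 and 6 UMIs (15.3-fold lower), Mptx2 75 and 12 (10.3-fold), Defa17 112 and 43 (4.27-fold) and Mmp7 15 and 9 (2.73-fold, 1.12 to 7.08).

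Other epithelial and plasma cell transcripts in the same T cell-like cells did not share that gap. Of 10 such genes, 3 were lower and 1 was higher in the model library by the same rule, where 2.00% of 12486 genes were higher. Muc2 was 1.62-fold, Spink4 1.51-fold and Apoa1 1.83-fold lower, Tff3 1.22-fold and Fcgbp 1.10-fold lower, and Zg16 had a ratio of 1.02. Igha, the heavy chain of IgA, had a ratio of 1.15, Jchain 1.19 and Rbp2 1.45. Fabp1, a fatty acid binding protein of enterocytes, was 2.17-fold higher.

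Counted per cell, the background spread less between classes than between libraries. In 9 classes outside the epithelium with at least 20 cells in each library, the 4 defensin members together averaged 1.11 to 1.60 UMIs per control cell and 0.095 to 0.297 UMIs per model cell, and the values of one library did not overlap those of the other. Enterocyte-like cells, which line the villi, were at 1.69 and 0.276. In enterocyte-like cells the 8 members had 330 and 31.9 CPM, 10.4-fold lower, and 8 of 8 passed the rule, where 9.28% of 11962 genes were lower. With a mitochondrial limit of 10% the log2 ratio moved from -3.37 to -1.74, and Ang4 (0.22) and Mmp7 (-0.52) no longer passed. A defensin level in these classes is read here as background and not as expression.

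Against that background, goblet-like cells carried some members far above the free RNA and others near it. Defa24 had 9970 UMIs in 296 control cells and 6419 UMIs in 277 model cells, 33.7 and 23.2 per cell. This was 36.1-fold and 218-fold the per-cell level of T cell-like cells. These are class means, and few cells made them up. The 38 control and 37 model cells with at least 20 Defa24 UMIs held 9310 and 6124 of those UMIs. By CPM, Defa24 was 13.3-fold and 66.1-fold above T cell-like cells, Mmp7 50.6-fold and 35.0-fold, Defa17 22.8-fold and 39.1-fold, Ang4 10.2-fold and 60.7-fold, and Lyz1 4.27-fold and 16-fold. These folds leaned on 1 cell, which held 1284 of 1512 control Defa17 UMIs, 253 of 450 of Mmp7 and 351 of 575 of Lyz1, and in the model library on 1 that held 435 of 614 of Defa17. Without the cell of each library with the most member UMIs, the fold was 7.88 and 53.1 for Defa24, 22.4 and 29.0 for Mmp7, 3.48 and 11.4 for Defa17, 8.15 and 57.7 for Ang4 and 1.69 and 10.4 for Lyz1. Of the cells with at least 20 Defa24 UMIs, 22 of 38 control and 22 of 37 model cells had no Defa17. Defa30 and Defa21 were below the T cell-like CPM in both libraries, at ratios of 0.625 and 0.853 for Defa30 and 0.294 and 0.456 for Defa21. Counted per cell, Defa30 was 1.70-fold (1.43 to 2.01) and 2.82-fold (1.70 to 4.50) the T cell-like level, far under the ratios of Defa24. Mptx2 had 62 UMIs in the control cells, 51 of them in 1 cell, and 0 in the model cells.

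The difference between defensins held cell by cell. Goblet-like cells with at least 20 Defa24 UMIs were 38 control and 37 model cells, with 21 to 4120 Defa24 UMIs (median 56.5) and 20 to 1279 (median 68). Together they held 96 and 11 Defa30 UMIs, 1.03 and 0.180 for every 100 of Defa24, and 20 and 28 of them had no Defa30 UMI. In 36 of 38 and 37 of 37 cells there were fewer than 5 Defa30 UMIs per 100 of Defa24. The 68 Paneth-like control cells with as many Defa24 UMIs had 34.2 per 100, and 0 of the 68 were under 5. These were mostly the shallow barcodes with mixed transcripts described above. Their value was near that of all kept control cells (33.3) and of the free RNA in control T cell-like cells (40.7). Whether each of them was a separate Paneth cell was not tested. In the Reg4 Tac1 cluster, 7 of 15 control and 9 of 14 model cells were under 5 per 100, so this cluster held cells of both kinds. The goblet-like cells with Defa24 also held goblet transcripts, with medians of 432.5 and 253 UMIs of the mucin Muc2 and 892.5 and 1147 of Zg16.

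**Figure D4:**
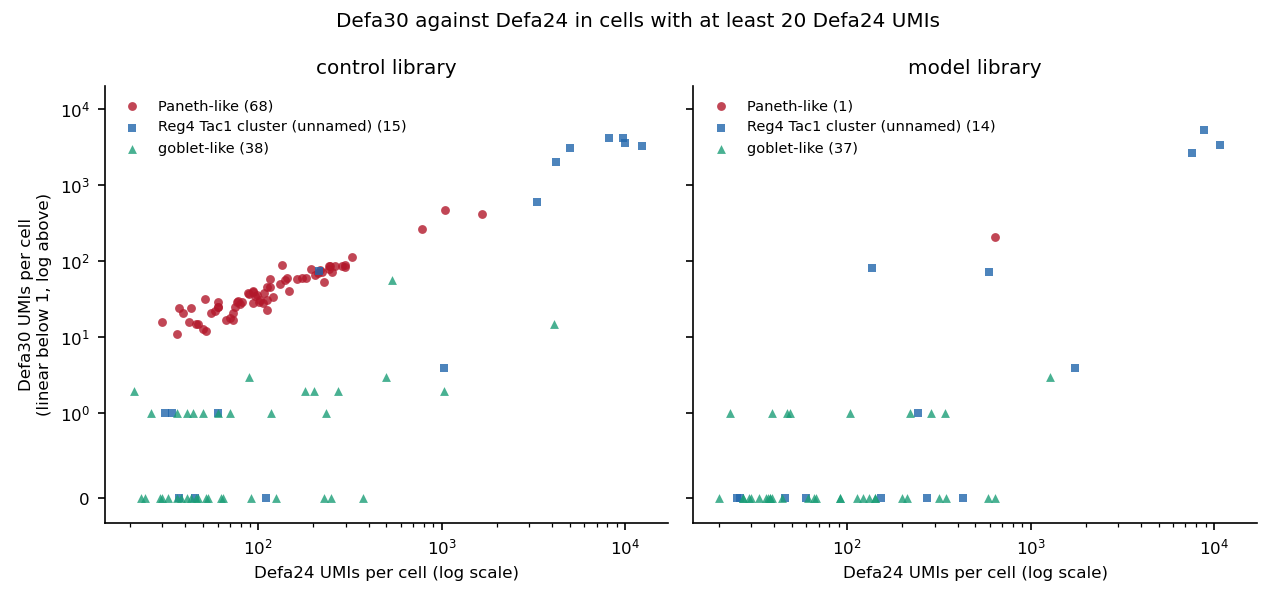
Defa30 UMIs against Defa24 UMIs per cell (log axes, linear below 1 for Defa30) for cells with at least 20 Defa24 UMIs, by class and library. Goblet-like cells lie under 5 Defa30 UMIs per 100 of Defa24 in 36 of 38 control and 37 of 37 model cells, and 0 of the 68 Paneth-like control cells do. Those 68 were mostly shallow barcodes with mixed transcripts.

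The deepest of these goblet-like cells was the control cell with 6147 member UMIs. It had 1284 of Defa17 and 253 of Mmp7, but 0.364 Defa30 UMIs per 100 of Defa24, where the other 7 deep control cells had 18.2 to 60.6 and the 3 deep model cells had 31.4, 60.6 and 35.1. In goblet-like cells, 7 of 8 members were lower in the model library, where 3.98% of 9518 genes were, and Lyz1 (1.20-fold lower) did not pass. That count leaned on the deepest cell of each library and on the clustering: with each library clustered alone, the summed members turned to a log2 ratio of 2.90, where the deep model cells fell in this class, and Mmp7 no longer passed with a minimum of 1000 UMIs (-0.44). Summed members were 4801 and 2816 CPM, 1.71-fold lower, and without the deepest cell the ratio was 0.824. Defa24 was 1.57-fold lower with it and had a ratio of 0.861 without it. After each cell was thinned to 1000 UMIs, the summed members were 1.24-fold lower.

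Crypt stem or transit-amplifying-like cells, the dividing cells beside the Paneth cells, stood above the free RNA when counted per cell, but by CPM the interval lay above the T cell-like level only for Mmp7 and Defa30, both in the model library. Summed members had 1747 UMIs in 466 control cells and 821 UMIs in 565 model cells, 183 and 78.6 CPM, and 7 of 8 members were lower, where 3.16% of 13020 genes were. After thinning to 1000 UMIs, 4 of the 7 no longer passed: Defa17, Defa30 and Ang4 had log2 ratios of -0.25 and Mptx2 -1.25, all with intervals across 0. Per cell the members were at 3.75 and 1.45 UMIs, 2.05-fold (1.93 to 2.18) and 7.24-fold (6.47 to 8.11) the T cell-like level. By CPM the 7 other members were at 0.256 to 0.457 of the T cell-like level in the control library. In the model library Lyz1 was at 1.03 (0.772 to 1.38), Defa24 at 1.10 (0.941 to 1.29) and Defa30 at 1.39 (1.05 to 1.86). Mmp7 was the exception with 43 and 65 UMIs, found in 23 and 28 cells, a ratio between libraries of 1.38 (0.927 to 2.08). It was 1.38-fold (0.754 to 2.68) the T cell-like CPM among control cells and 5.24-fold (2.60 to 12.0) among model cells.

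Lyz1 in macrophage-like cells went against the other members. Macrophages mainly use the other lysozyme gene, Lyz2. Lyz1 had 53 UMIs in 231 control cells and 602 UMIs in 214 model cells, 55.1 and 715 CPM, 13.0-fold higher in the model library (9.80 to 17.5). Defa24 in the same cells had 186 and 19 UMIs, 8.56-fold lower. Of 4 members with enough UMIs, 3 were lower, where 4.37% of 7902 genes were, and Lyz1 alone was higher, where 6.49% were.

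The higher Lyz1 level came from few cells. Cells with at least 5 Lyz1 UMIs made up 0.866% of the control class, 2 of 231 (0.105% to 3.09%), but 4.67% of the model class, 10 of 214 (2.26% to 8.43%). The 10 model cells held 589 of the 602 UMIs, led by 187, 170 and 64, and without the top cell of each library Lyz1 was still 10.4-fold higher. They held 1443 UMIs of Lyz2 and 1 of Defa24. Lyz1 per 100 Lyz2 UMIs over the class was 1.48 (control) and 10.5 (model). Lyz2 was also higher in the 10 model cells, at 20070 CPM against 5548 CPM in the other 204 (3.62-fold). Lyz1 per 100 Lyz2 UMIs was 40.8 against 0.304, a gap that the choice of cells by Lyz1 itself widens. The 10 cells were also deeper, with a median of 6563.5 against 3017.5 UMIs. Since 4.82% of the Lyz1 windows are shared with Lyz2, reads of Lyz2 could be counted as Lyz1, and their part was not tested. The model cell with the most Lyz2, 572 UMIs, had 2 of Lyz1, another with 303 had 1, and the cell with 187 of Lyz1 had 272 of Lyz2. Paneth markers made up 0.00727% of the UMIs of the control and 0.00261% of the model macrophage-like cells, with 12 and 4 of 16 detected. Among genes picked after their values were seen, Il22ra2, a decoy receptor for interleukin 22, was 41.3-fold higher by CPM over the 10 cells than over the other model macrophage-like cells, with UMIs in 6 of the 10. Fabp5, a fatty acid binding protein, was 25.1-fold higher (7 of 10) and Ctsd, a lysosomal protease, 10.3-fold (9 of 10).

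**Figure D5:**
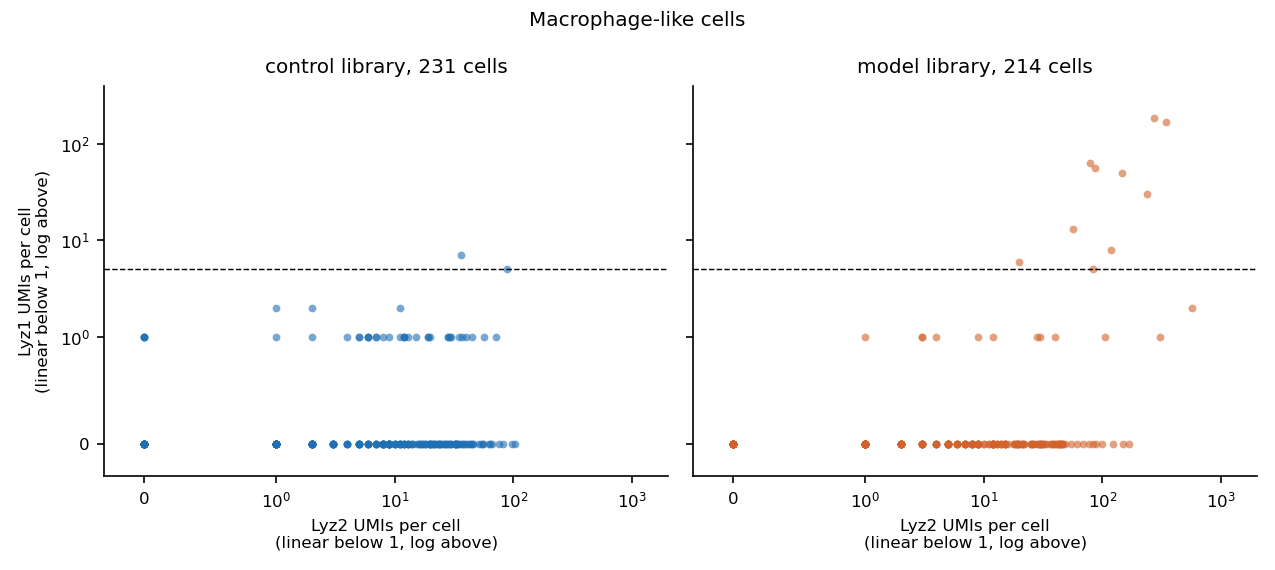
Lyz1 UMIs against Lyz2 UMIs in each macrophage-like cell (axes linear below 1 and log above), control and model. The dashed line is 5 Lyz1 UMIs. Cells with at least 5 Lyz1 UMIs number 2 of 231 control and 10 of 214 model cells, and the highest model cells reach 187 and 170 Lyz1 UMIs.

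Dendritic cell-like cells had 36 Lyz1 UMIs in 68 control cells and 152 in 92 model cells, 87.1 and 261 CPM, 2.99-fold higher (2.07 to 4.43), where 5.08% of 5468 genes were higher. After thinning to 1000 UMIs this no longer passed (log2 ratio 1.20, -0.18 to 2.81). Of the Lyz1 UMIs, 1 control cell held 26, and 3 model cells held 145.

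Other alpha-defensins and antimicrobial products of the gut, some of them made mainly by other cells, were counted from lists written with earlier results of these data known. Of 41 other Defa symbols, 19 had enough UMIs over all kept cells, and 19 of 19 were lower in the model library, where 10.7% of all genes were, with a median log2 ratio of -2.37 where the median of all genes was -0.04. Defa39 had 354 and 112 CPM (3.17-fold lower), Defa38 138 and 53.1 CPM (2.59-fold) and Defa22 213 and 18.5 CPM (11.5-fold), and Defa32 had 84 and 0 UMIs. The Reg4 Tac1 cluster held 39687 of the 53952 control and 14889 of the 16427 model UMIs of these genes. It held 9456 of 11319 control UMIs of Defa22 and 80 of 84 of Defa32. Within the Paneth-like class, in effect 1 barcode on the model side, 14 were measured. Their median log2 ratio was 0.15, where that of all genes was 0.14. Of 22 measured antimicrobial or granule products, 10 were lower, where 10.7% of all genes were, and 1 was higher, with a median log2 ratio of -0.56. Reg3b, a lectin of the epithelium that binds bacteria, had 4850 and 6627 CPM, a ratio of 1.37 that did not pass the rule. Reg3g, a related lectin, was 1.47-fold lower and Lypd8, which keeps bacteria off the epithelium, had a ratio of 1.37, neither of which passed, and Reg3a had a ratio of 1.63 and was the gene that passed as higher, as 2.54% of 19217 genes did. Retnlb, a goblet cell product, had 77 and 1 UMIs.

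Of 24 measured genes for forming and running the secretory cell, 2 were lower (8.33%) and 1 was higher (4.17%), near the 10.7% and 2.54% of all genes, with a median log2 ratio of -0.22. Wnt3, a signal that Paneth cells send to stem cells, had 89 and 72 UMIs (1.54-fold lower), the surface protein gene Cd24a had 169 and 113 CPM and was the other gene that passed as lower, and Lrrk2, a kinase linked to lysozyme sorting, had 96 and 201 UMIs, a ratio of 1.68. Xbp1, a regulator of secretory capacity, had a ratio of 0.944, and Tcf7l2, a factor that carries Wnt signals, was 1.42-fold lower without passing.

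Across 58 points, each the sum of 1 cluster in 1 library with at least 20 cells, the levels most like the summed members on a log scale were those of Defa39 (Pearson r = 0.927), Itln1 (0.909), Defa38 (0.872), Defa36 (0.856), Defa41 (0.853) and Defa29 (0.851), of 13224 genes ranked. Points of one library share its free RNA and its depth, so these values describe the tables and carry no p. Itln1 encodes an intestinal lectin that binds microbial sugars.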

How the data were processed

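The deposited files, made by the authors, hold raw UMI counts per gene and cell barcode for each library. Per the file headers they were written by Cell Ranger 7.0.1, but Cell Ranger 4.0 and GRCm39 appear in the submitters' processing notes. No file or label used here states how many animals were pooled. The members and gene lists were chosen with earlier results of these data known.

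A barcode was kept when it had 500 UMIs or more, 200 genes or more and no more than 25% of its UMIs from mitochondrial genes. The deposited tables hold 10259 control and 11468 model barcodes with 61370270 and 76701215 UMIs. Removed barcodes held 3.83% of the control and 1.91% of the model member UMIs. Counts were scaled to 10000 per cell and logged, 2000 variable genes without members and Defa genes gave 30 principal components, and both libraries were clustered together (scanpy 1.11.5, 15 neighbours, Leiden resolution 1). Scrublet scored each library.

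A cluster was named from at least 3 markers that were 2-fold or more enriched and found in 10% or more of its cells. It was left unnamed where its 10 leading genes held more markers of another type. A shallow cluster was also left unnamed where they held 0 of its own. CPM is UMIs per 1000000 UMIs of the class, with exact Poisson intervals. Ratios have exact conditional binomial intervals and shares Clopper-Pearson intervals. Genes needed at least 20 UMIs over both libraries to be counted. The rule for lower or higher was also run on simulated library totals with known changes. Those totals held no spread between cells, so the run does not cover members held by few cells. All 8 members are named, and from each list the 3 genes with the most UMIs and those with extreme ratios. The 6 genes most like the members and 10 genes for comparison of free RNA complete the rule. The planned comparison of proteins was not run. The alternatives tried changed the mitochondrial limit, the UMI minimum, the resolution, the genes clustered on, joint clustering, doublet removal, depth, the deepest cells and the denominator. Promoters come from RefSeq on GRCm38.p6, another build than the notes name, and were used for their letters alone.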

Additional observations from a re-analysis of the deposited data

Results flagged for a closer look

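Lyz1 was higher in the model library in 2 classes while over all kept cells it was lower. In macrophage-like cells the log2 ratio of model over control was 3.70, and in dendritic cell-like cells it was 1.58 (1.20, with an interval across 0, after thinning to 1000 UMIs). Over all kept cells the log2 ratio of Lyz1 was -1.73, and in T cell-like cells it was -2.16. With 1 library in each group the difference between these classes was not tested. The libraries also differed in immune cell content, with 4 control and 277 model B cell-like cells. Whether the macrophage-like and dendritic cell-like cells came from the same kinds of tissue in both libraries was not tested.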

How the results depend on the processing

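No paired analysis was possible because each group has 1 library. Values are log2 ratios of model over control unless stated. Of 460 recomputed values of single members, 445 kept their direction, and of 432 recomputed values of called members 411 stayed past the rule. They cover all kept cells and the T cell, goblet, crypt, enterocyte, macrophage and dendritic cell classes. Single members in the Paneth-like class and the Reg4 Tac1 cluster are not in these counts, and several in that cluster changed direction without the deep cells. The share of Paneth-like cells was -5.22, and -0.55 with a minimum of 1000 UMIs and -2.12 without the shallow member-rich barcodes (an alternative chosen after seeing the data). No such class formed with a mitochondrial limit of 10%, with no limit or at resolution 2, and clustering each library alone gave none in the model library. Its percent of member UMIs in the control library was 13.4, and 87.5 with 1000 UMIs, 84.9 with members used for clustering, 84.4 with libraries alone and 3.19 without the shallow barcodes. In the model library it was 1.68, and 87.3, 83.0 and, without the shallow barcodes, 0.041. Its CPM ratio was 0.015, and -0.85, -0.14 and, without the 8% highest doublet scores, 1.33. Summed members over all kept cells were -1.63, and -1.67 with the 10% limit, -1.65 with no limit, -1.60 with 1000 UMIs, -1.79 without the top cells, -1.65 with another denominator, -1.49 without the shallow and -1.78 without the deep cells. In the Reg4 Tac1 cluster they were -0.80, and -0.93 without the top cells and 0.99 without the deep cells (both chosen after seeing the data). In T cell-like cells they were -3.02, and -3.20 thinned. In crypt cells they were -1.22, and -1.56 with no limit, -1.51 with 1000 UMIs, -1.60 alone, -0.93 without doublets and -1.02 thinned. In enterocyte-like cells they were -3.37, and -1.74 with the 10% limit, -3.00 with none, -3.21 without doublets and -3.04 thinned. In goblet-like cells they were -0.77, and -1.59 with the 10% limit, -0.94 with none, -0.54 with 1000 UMIs, -0.64 at resolution 2, -0.65 with members used, -1.08 without doublets, -0.31 thinned and -0.28 without the top cells. Clustering each library alone turned goblet-like cells to 2.90, with Defa17 at 2.74, Defa21 3.65, Defa24 2.50, Defa30 5.96, Ang4 1.35 and Mmp7 0.91, where the model library formed no Paneth-like class. Defa17 in goblet-like cells was 0.025 thinned, Mmp7 there 0.20 with members used, and Ang4 in enterocyte-like cells 0.22 with the 10% limit; the cause was not tested. A difference between animals cannot be told apart from a difference between 2 libraries.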
